A study of Mus musculus with 9 samples.

Results

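Amino acid transporters of 6 solute carrier families, SLC1, SLC3, SLC7, SLC36, SLC38 and SLC43, were examined for DNA methylation at 854 CpGs assigned to 42 genes. The members were taken by gene symbol, as every CpG assigned to a gene of these families that had 10 or more reads in each of 9 libraries; 1 SLC38 gene was left out by the rule and is not analysed here. They make up 854 of 356320 CpGs with that depth, and 2093 deposited CpGs carry these symbols at any depth. SLC38 contributed 278 CpGs in 10 genes, SLC7 270 in 16, SLC1 192 in 7, SLC3 40 in 2, SLC36 39 in 4 and SLC43 35 in 3. One symbol matched by the rule, Slc7a6os, belongs to a neighbour of Slc7a6 that is no transporter. Because each CpG is assigned to the gene with the nearest start site, a CpG of one of these genes may lie far outside its transcript.

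Amino acid transporters set how much of each building block a cell can take up, and antibody-secreting cells put large amounts of amino acids into immunoglobulin. Many SLC7 proteins are light chains that reach the membrane only when paired with an SLC3 heavy chain, Slc3a2 (CD98) or Slc3a1. SLC1 carries glutamate and neutral amino acids, SLC38 moves glutamine and small neutral amino acids with sodium, SLC36 couples transport to protons, and SLC43 moves large neutral amino acids without a heavy chain. Methylation of CpGs near a start site is commonly linked to silencing, while most CpGs in gene bodies and between genes are methylated in mammalian cells.

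Splenic cells of 10-week-old female C57Bl/6J mice were studied, with 3 libraries in each of 3 groups. Naive B cells were sorted as B220+ CD43- from mice that received no agent. Among CD138+ cells, those with a B220mid stain were taken as plasmablasts and those with a B220low stain as plasma cells, from mice at day 3 after LPS, a bacterial lipopolysaccharide that drives B cells to divide and to secrete antibody. Reduced representation bisulfite sequencing, which reads CpGs near MspI sites and scores unmethylated cytosines as thymine, gave 16037172 to 29948088 reads over CpGs per library and a median of 24 to 37 reads per member CpG. The libraries fell into a pair of sets by the level at mitochondrial CpGs, which lay from 0.332% to 1.05% in naive B cells 1 and plasma cells 1 to 3 and from 2.77% to 7.18% in naive B cells 2 and 3 and plasmablasts 1 to 3. Plasma cells and plasmablasts therefore never share a set, and differences between them cannot be told apart from that split. The sources used here do not tie libraries to animals, so p-values measure only how these libraries vary, which may be technical. As methylation gives no marker expression, the sorted cell types could not be checked by it. In plasma cells the loci of marker genes fell at 5 of 6 B lineage, 4 of 4 plasma cell, 4 of 4 T cell, 2 of 3 myeloid and 3 of 3 erythroid genes with a tested locus. Among the tested loci of all genes 66.3% fell.

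Promoter sequence is shown for Slc7a7 and Slc3a2, as the 250 bases before the start site from RefSeq on build GRCm38.p6; the CpG measurements use build mm9, and no coordinate was moved between builds. Of the 42 genes 31 matched a promoter window. Slc7a7 is shown because its CpGs within 1000 bp of a start had the largest drop of the 21 genes tested. Those CpGs lie before its most upstream start and before an inner start, and only the former are in the printed window. The capitals mark 3 CpGs that were measured, which were found in the window by their spacing of 19 and 16 bases. Slc3a2 is shown as a start region that was nearly free of methylation in all groups. By their spacing, all 9 CpGs measured from 250 bases before to 50 after its start were found at a CG of the RefSeq window, and the capitals mark the 5 that lie in the bases printed.
Slc7a7, chr14:54417703-54417952, minus strand: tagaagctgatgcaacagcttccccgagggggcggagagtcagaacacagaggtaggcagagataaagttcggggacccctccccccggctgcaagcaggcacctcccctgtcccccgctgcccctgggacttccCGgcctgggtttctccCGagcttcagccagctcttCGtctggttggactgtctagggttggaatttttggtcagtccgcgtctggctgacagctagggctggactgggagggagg
Slc3a2, chr19:8713898-8714147, minus strand: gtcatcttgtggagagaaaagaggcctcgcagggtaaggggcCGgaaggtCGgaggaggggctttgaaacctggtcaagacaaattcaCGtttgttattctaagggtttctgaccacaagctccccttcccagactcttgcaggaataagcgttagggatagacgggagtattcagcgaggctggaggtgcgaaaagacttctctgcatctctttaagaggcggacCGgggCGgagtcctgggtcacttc
Over windows of 300 bases, from 250 before to 50 after the start, the Slc7a7 window held 11 CG and that of Slc3a2 15, against a median of 7 over all 32851 windows. The amino acid response core TGATGNAA was found on either strand in 3 of the 31 genes, Slc7a7, Slc7a11 and Slc1a4, and in 4.51% of all 27025 genes with a window. The Myc E-box CACGTG was found in 7 of the 31, Slc1a6, Slc1a7, Slc36a1, Slc38a5, Slc38a7, Slc43a1 and Slc7a14, and in 8.09% of all genes, searched on both strands. The motifs can overlap by the letters TG, but no gene of these families held both. A match says only that the letters are there, and for genes other than Slc7a7 and Slc3a2 the RefSeq start was not matched to the start whose CpGs were measured.

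The families started from different levels in naive B cells and all had lower means in plasma cells. Levels here are means over a family's CpGs in each library, given as mean ± SD over 3 libraries. SLC36 was the most methylated family, with 95% ± 1.32 for naive B cells, 82.3% ± 1.87 for plasmablasts and 78.1% ± 2.66 for plasma cells. SLC7 stood at 67.3% ± 1.26, 59.3% ± 1.38 and 53.1% ± 1.63 in the same order. SLC38 stood at 65.9% ± 1.37, 59.3% ± 1.74 and 53.9% ± 1.30, close to SLC7 at every stage. SLC1 had 53.7% ± 1.20, 47.6% ± 0.886 and 42.7% ± 2.03. SLC43 had 51.7% ± 0.837, 47% ± 1.71 and 40.7% ± 1.78. The SLC3 family, 65.0% of whose CpGs are promoter CpGs, moved least, from 44.4% ± 2.14 to 40.8% ± 2.12 and 38.1% ± 1.26. Over all tested CpGs the levels were 62.4% ± 1.23, 54.8% ± 1.16 and 49.8% ± 1.77. In all 6 families each plasma cell library lay below each naive B cell library, as it did over all tested CpGs. Plasmablast libraries also lay below every naive library except in SLC3, where plasmablasts 2 (43.2%) lay above naive B cells 1 (42.2%). Against naive B cells 1 alone, the naive library of the same set, plasma cells differed by -4.10 points in SLC3, -9.66 in SLC1, -10.3 in SLC43, -10.5 in SLC38, -12.8 in SLC7 and -15.4 in SLC36, and by -11.2 over all tested CpGs. A level of a sorted population is an average over its cells, so a change within cells and a change in the mix of cells cannot be told apart.

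**Figure D1:**
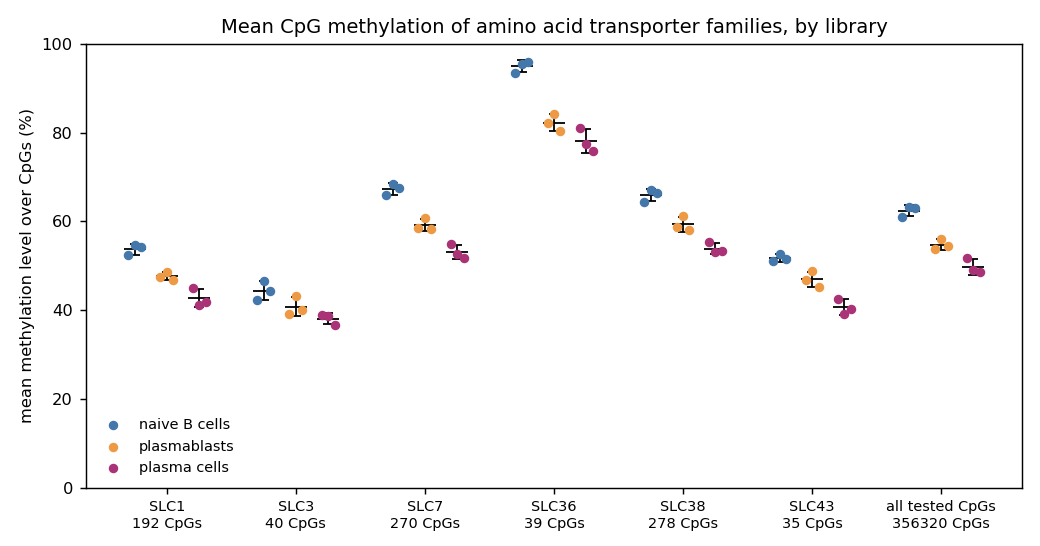
Mean methylation level (%, vertical axis) of each transporter family and of all tested CpGs, with 1 point per library, the mean as a horizontal bar and the SD over 3 libraries as the error bar. SLC36 starts highest, at 95% in naive B cells, and SLC3 lowest, at 44.4%; within every family the plasma cell points lie below the naive points.

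A CpG was called when its Benjamini-Hochberg adjusted p over all tested CpGs was under 0.01, by a quasi-binomial test whose dispersion was moderated with limma, and its pooled level differed by at least 20 percentage points. Between plasma cells and naive B cells 172 of the 854 member CpGs (20.1%) fell and none rose, against 22.6% lower and 0.0435% higher among all tested CpGs. At an unadjusted p under 0.05, 465 member CpGs (54.4%) were lower and 0 higher, against 54.0% and 0.335% of all tested CpGs. Limma on log ratios likewise called 0 higher. Between plasmablasts and naive B cells 71 (8.31%) fell and none rose, against 10.4% lower and 0.062% higher among all tested CpGs. There 325 (38.1%) were lower and 28 (3.28%) higher at an unadjusted p under 0.05, against 40.3% and 3.28% of all tested CpGs. Limma called 0 member CpGs higher. Between plasma cells and plasmablasts 7 (0.82%) fell and none rose, against 0.525% lower and 0.000561% higher over all tested CpGs. With the 7 included, 167 (19.6%) were lower and 1 (0.117%) higher at an unadjusted p under 0.05, against 17.7% and 0.389% of all tested CpGs. Limma called 0 in either direction, among the members and among all tested CpGs. The 7 lie 2 in Slc7a7 and 1 each in Slc7a5, Slc38a2, Slc38a8, Slc43a2 and Slc1a7. All 7 calls were lost with the term for the library set, under which 0.039% of all tested CpGs were called lower. In this comparison a call lost with limma therefore says nothing about the single CpG, since limma kept no call at any tested CpG. The members' shares lay near or below these backgrounds in the comparisons with naive B cells. With a term for the library set, 88 member CpGs (10.3%) fell in plasma cells and 58 (6.79%) in plasmablasts against naive B cells, against 10.6% and 8.70% of all tested CpGs.

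Of the 172 CpGs lower in plasma cells, 66 were also lower in plasmablasts, which is 38.4% of the plasma cell list and 93.0% of the plasmablast list; both comparisons share the naive libraries. These 66 had a naive mean of 89.1%, a plasmablast mean of 59.8% and a plasma cell mean of 50.5%. The 106 called in plasma cells alone averaged 86.9%, 73.1% and 59.4%, and 103 of the 106 had a lower mean in plasmablasts than in naive B cells. Choosing CpGs by these calls itself favours a plasmablast mean between the other groups, so the order is no separate result. Over all tested CpGs the median plasmablast difference was -5.88 points. The 5 CpGs called in plasmablasts alone belong to Slc7a14 (2), Slc1a1, Slc36a1 and Slc38a11. In all 5 the plasma cell mean lay between those of plasmablasts and naive B cells, an order that their selection also favours. At least 1 CpG fell in plasma cells in 38 of the 42 genes, against 75.0% of all genes with a tested CpG, and in plasmablasts in 24, against 56.8%. Among genes with 5 or more tested CpGs it was 32 of 36 in plasma cells, against 80.7%, and 22 of 36 in plasmablasts, against 63.9%. The authors' deposited lists hold 123 member CpGs for plasma cells and 23 for plasmablasts, and all 123 and all 23 are also called here. Of all 356320 tested CpGs they hold 54498 and 11812. The lists were made from the same libraries, so the overlap is not independent evidence.

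Shares of CpGs that fell differed between families. In plasma cells 33.3% of SLC36 CpGs fell, 23.3% of SLC7, 20.0% of SLC43, 18.8% of SLC1, 18.3% of SLC38 and 5.00% of SLC3. In plasmablasts the shares were 20.5% in SLC36, 10.4% in SLC7, 8.33% in SLC1, 6.47% in SLC38, 2.50% in SLC3 and 0% in SLC43. Nearly all SLC36 CpGs (38 of 39) had a naive level of at least 80%, against 18 of 40 in SLC3, and a CpG below 20% cannot fall by the minimum difference. Among CpGs at 80% or more the shares lower in plasma cells were 34.2% in SLC36, 34% in SLC1, 33.3% in SLC43, 30% in SLC7, 22.2% in SLC38 and 11.1% in SLC3, against 33.2% of all such CpGs and 32.5% of those of other Slc genes. SLC38 (37 of 167) and SLC3 (2 of 18) were thus below that share, and in SLC38 CpGs of this starting level averaged 82.2% ± 1.67 in plasma cells against 77.9% ± 2.39 over all such CpGs. Between 20% and 80% in naive B cells the order differed: 14 of 35 SLC38 CpGs (40.0%) and 15 of 47 SLC7 CpGs (31.9%) fell, against 29.6% of all CpGs there. Differences between families were not tested, since CpGs of a gene are not replicates. Over all other Slc genes, 24% of 4804 CpGs fell in plasma cells, with 28.8% among sugar carriers named Slc2a and 19.5% among mitochondrial carriers named Slc25a.

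**Figure D2:**
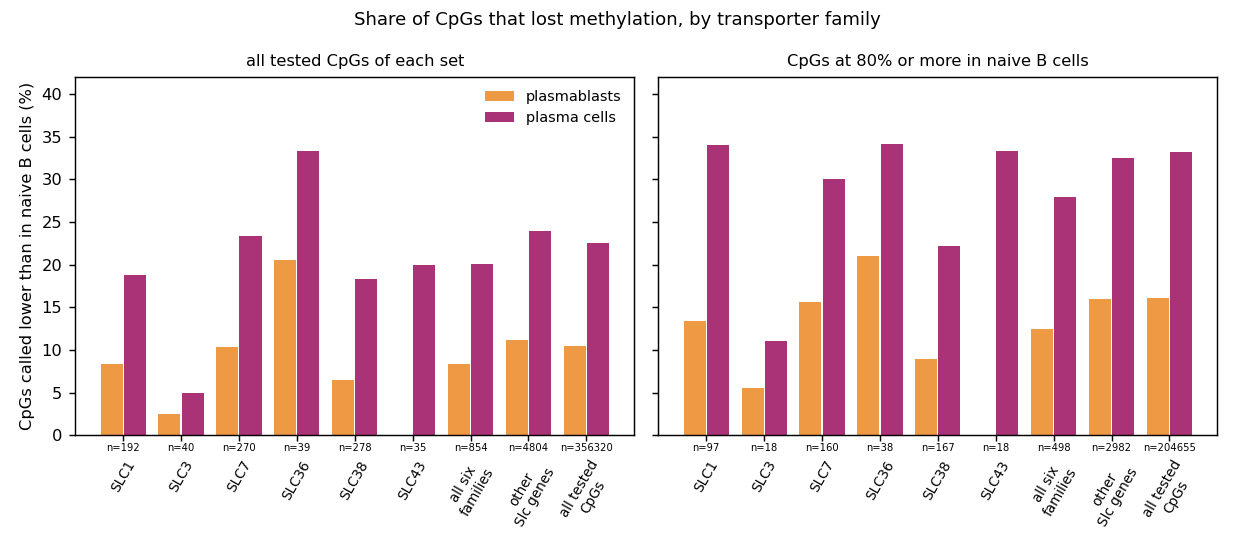
Bars give the percent of CpGs called lower in plasmablasts or plasma cells relative to the naive libraries, for all tested CpGs of a set (left) and for those with a naive level of at least 80% (right); n is the number of CpGs and no error applies. On the right the plasma cell bars of SLC1, SLC36 and SLC43 stand at 33.3% to 34.2%, near the 33.2% of all tested CpGs, while SLC38 stands at 22.2% and SLC3 at 11.1%.

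Reads were then summed over each gene's CpGs, here called a gene locus, for the 36 genes with 5 or more; Slc1a6, Slc36a3, Slc36a4, Slc38a7, Slc7a12 and Slc7a2 had fewer. A locus was called at an adjusted p under 0.01, by the same test with limma's moderation over 14220 loci, and a pooled difference of at least 5 points. In plasma cells against naive B cells 27 of 36 loci fell, against 66.3% of all loci, with a median difference of -15.2 points against -15.7 over all loci. By family these were 5 of 6 in SLC1, 1 of 2 in SLC3, 12 of 14 in SLC7, 2 of 2 in SLC36, 5 of 9 in SLC38 and 2 of 3 in SLC43. In 32 of the 36 the plasma cell libraries all lay below the naive ones, against 78.8% of all loci. In plasmablasts against naive B cells 6 of 36 loci fell, against 23.1% of all loci: Slc7a1, Slc7a15, Slc36a1, Slc36a2, Slc3a1 and Slc43a3. None of the 36 was called between plasma cells and plasmablasts, against 0.0% of all loci, although all 36 had a lower pooled level in plasma cells; 23 were lower at an unadjusted p under 0.05, against 48.1% of all loci, and limma on unweighted means called 6, against 10.2%. The count rose from 0 to 12 without plasma cells 1, against 17.8% of all loci. The plasmablast count moved to 2 without naive B cells 2 (9.37% of all loci) and to 3 without naive B cells 3, plasmablasts 1 or plasmablasts 3 (9.88% to 11.2%). It moved to 11 without plasma cells 1 (30.3% of all loci), and to 24 with limma on unweighted means (56.2% of all loci). The plasma cell count was 15 with a term for the library set, where 38.1% of all loci were called, and 18 without plasma cells 3, its lowest with a library left out, where 45.3% were. The 13 loci lower in plasma cells under every alternative in which they could be tested were Slc1a3, Slc1a7, Slc3a1, Slc7a1, Slc7a7, Slc7a10, Slc7a14, Slc7a15, Slc36a1, Slc36a2, Slc38a2, Slc38a8 and Slc43a3. A coverage minimum of 20 left only 20 of the 36 loci with enough CpGs to test, and Slc7a7 was not among them. Pooling weights CpGs by their reads, and over all loci the median difference was -15.7 points pooled and -11.9 with CpGs weighted equally.

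**Figure D3:**
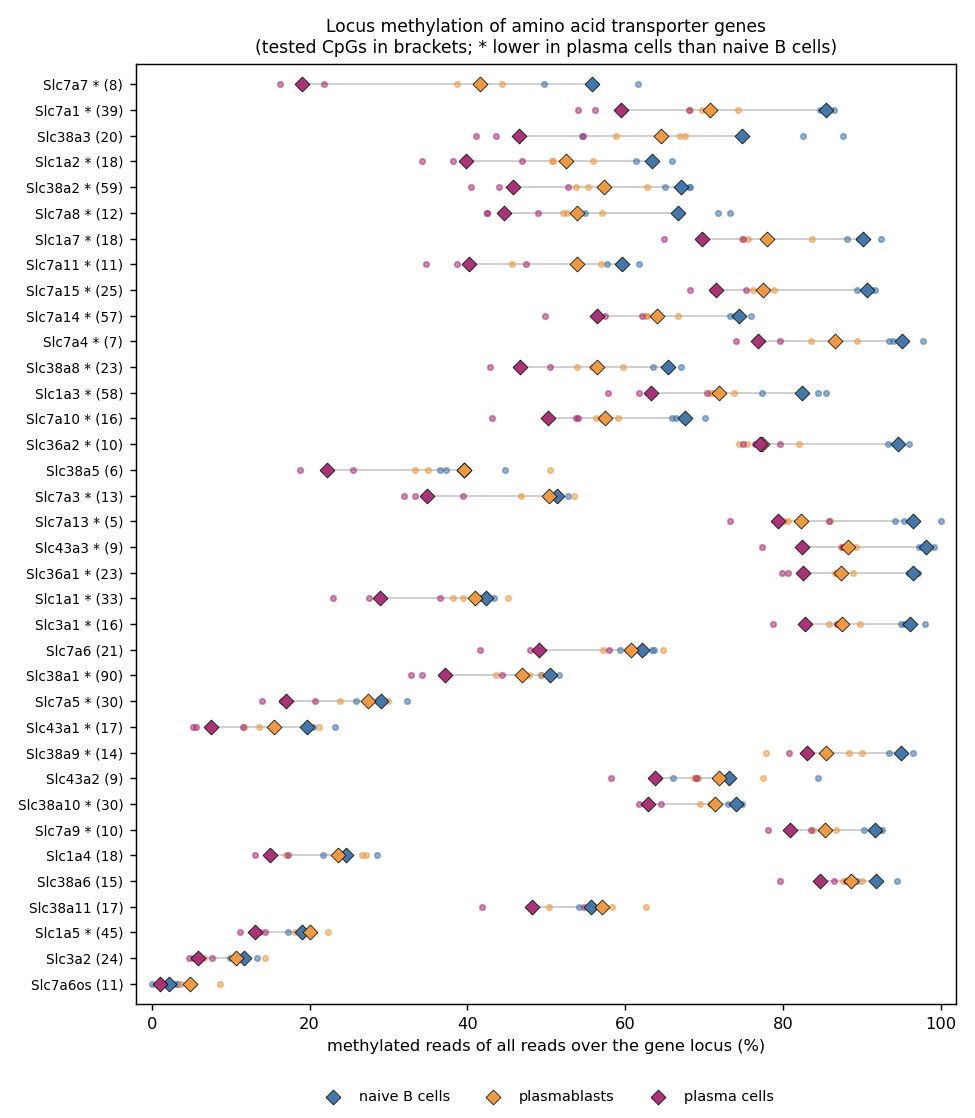
Percent of methylated reads over each of the 36 gene loci (horizontal axis), with small points for libraries and diamonds for group means, ordered by the difference between plasma cells and naive B cells. Slc7a7 lies at the top with means of 55.9%, 41.6% and 19.1%, and Slc7a6os at the bottom, near 0 in all groups.

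The heavy chains of the SLC3 family differed in where their measured CpGs lay. All 24 CpGs of Slc3a2, the CD98 heavy chain that brings Slc7a5, Slc7a6, Slc7a7, Slc7a8, Slc7a10 and Slc7a11 to the membrane, are promoter CpGs. Its locus stood at 9.94%, 13.4% and 11.8% in naive B cells, 6.59%, 14.3% and 11.2% in plasmablasts and 7.66%, 4.67% and 5.24% in plasma cells (libraries 1 to 3 of each group in this order here and below). Of the 24 CpGs, 22 had a naive level under 20% and 2 had 80% or more. Over the 22 CpGs within 1000 bp of a start, the means were 2.90%, 3.42% and 1.07% in naive B cells, plasmablasts and plasma cells. The pooled locus levels were low in all groups, and the plasma cell libraries lay below the naive ones. The locus difference of -5.74 points missed the threshold (adjusted p = 0.016). With CpGs weighted equally it was -2.40 points. Slc3a1, the heavy chain of the cystine transporter of kidney and gut, stood at 95%, 98% and 95.4% in naive B cells, 85.8%, 89.7% and 86.9% in plasmablasts and 86.8%, 83% and 78.7% in plasma cells over 16 CpGs. It fell by 8.59 points in plasmablasts (adjusted p = 0.0079) and fell by 13 in plasma cells (adjusted p = 0.00058), with no overlap with the naive libraries; the plasmablast call was lost when naive library 2 or 3, any plasmablast library, or plasma cell library 2 was left out. Its single CpGs with the largest loss lay 126 bp before the start (chr17:85427560, mm9), at 78.9%, 100% and 88.9% in naive B cells, 81.8%, 81.8% and 72.2% in plasmablasts and 70%, 68.8% and 53.3% in plasma cells, and in an intron (chr17:85446786), at 87.9%, 96.3% and 95.7% in naive B cells, 71.8%, 74.5% and 63.6% in plasmablasts and 70.7%, 64.7% and 62.7% in plasma cells. The plasma cell call at the intronic CpG was lost with the library set term. At the promoter CpG plasmablast and naive libraries overlapped, and its plasma cell call (adjusted p = 0.0074) was lost with the library set term and without naive B cells 2 or 3 or plasma cells 2 or 3.

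Among light chains that pair with CD98, Slc7a7 had the largest locus difference of all members. Slc7a7 (y+LAT1) exports cationic amino acids such as arginine and lysine in exchange for neutral ones. Its 8 CpGs (mm9 chr14, transcript 54989128 to 55036536, minus strand) stood at 49.8%, 56.1% and 61.7% in naive B cells, 44.4%, 38.7% and 41.6% in plasmablasts and 21.9%, 19.1% and 16.3% in plasma cells. The 3 groups do not overlap, and plasma cells lay below naive B cells (-35.3 points, adjusted p = 5.7e-05), a call that held under all 14 alternatives run. Against plasmablasts the difference of -22.7 points did not pass (adjusted p = 0.043), nor did plasmablasts against naive B cells (-12.6 points, adjusted p = 0.055). Of the 8 CpGs 6 fell in plasma cells and 1 in plasmablasts against naive B cells. They lie at 3 places: 81 to 116 bp before the most upstream start, 3813 to 3966 bp after that start, and 763 to 973 bp before an inner start.

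In the printed Slc7a7 window the measured CpG farthest from the start (chr14:55036653, 116 bp before it in the deposited annotation) had 54.1%, 68.4% and 81.8% in naive B cells, 71.4%, 72.7% and 48.1% in plasmablasts and 33.3%, 15.8% and 16% in plasma cells. It was read 11 to 50 times per library. Naive and plasmablast libraries overlapped there and plasma cells lay below all of them, with differences of -42.5 points against plasmablasts (adjusted p = 0.0002; lost without plasmablasts 2 or plasma cells 3, with the set term and with limma) and -42.3 against naive B cells (adjusted p = 5.4e-06). The CpG nearest the start (chr14:55036618, 81 bp before it) had 54.1%, 68.8% and 72.7% in naive B cells, 50%, 36.4% and 44.4% in plasmablasts and 28.6%, 17.6% and 12.5% in plasma cells. It fell by 42.3 points in plasma cells (adjusted p = 1.1e-05). The middle CpG (chr14:55036637, 100 bp before) had 24.3%, 37.5% and 45.5% in naive B cells, 37.5%, 31.8% and 44.4% in plasmablasts and 21.4%, 17.1% and 5.00% in plasma cells and was not called (adjusted p = 0.036). Before the inner start the CpG at 763 bp (chr14:55029061) had 76.4%, 68.9% and 75.6% in naive B cells, 60.5%, 60.4% and 48.8% in plasmablasts and 44%, 16.7% and 36% in plasma cells. At 942 bp (chr14:55029240) the levels were 48.5%, 60% and 80% in naive B cells, 48.8%, 21.4% and 27.3% in plasmablasts and 10.8%, 22.5% and 2.56% in plasma cells. At 973 bp (chr14:55029271) they were 33.3%, 27.7% and 57.8% in naive B cells, 24.6%, 25.8% and 19.6% in plasmablasts and 5.88%, 10.2% and 1.75% in plasma cells. All 3 fell in plasma cells, with differences of -50.4 to -35.5 points, and the one at 942 bp also fell by 29.4 points in plasmablasts (adjusted p = 0.0019; lost without naive B cells 3, plasmablasts 2 or plasmablasts 3, and with limma). Naive libraries ranged widely at these CpGs (27.7% to 57.8% at 973 bp), and the single-CpG test pools its spread over all CpGs, so such spread hardly enters its p. The exonic CpG at chr14:55032722 had its highest mean in plasmablasts, with 38.8%, 38.5% and 20% in naive B cells, 41.7%, 37.1% and 54.2% in plasmablasts and 18.2%, 22.1% and 17.5% in plasma cells. It was called only between plasma cells and plasmablasts (-27 points, adjusted p = 0.00016), a call lost without plasmablasts 3, with the set term and with limma.

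**Figure D4:**
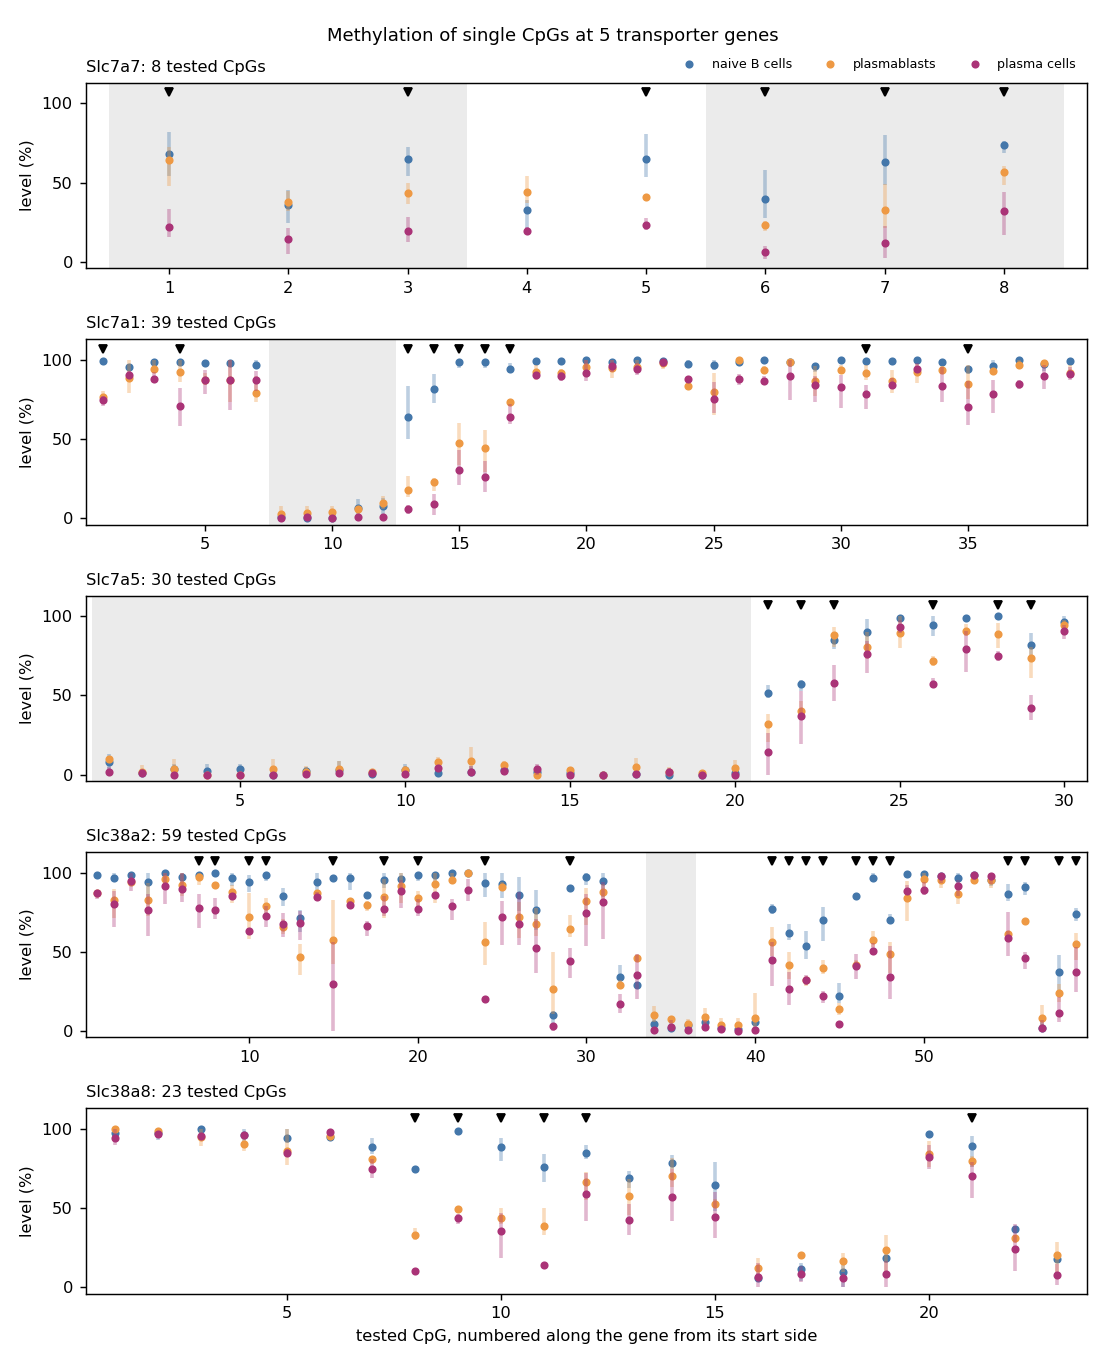
Level (%) of every tested CpG of 5 genes, in order along each gene from its start side, with points for group means and vertical lines for the range over 3 libraries; grey bands hold CpGs within 1000 bp of a start site and black triangles mark CpGs called lower in plasma cells relative to naive ones. In Slc7a7 triangles stand over 6 of 8 CpGs, in Slc7a5 over 6 CpGs beyond the unmethylated start region, and in Slc7a1 and Slc38a8 over runs of neighbouring CpGs.

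Slc7a5 (LAT1), the light chain that imports leucine and other large neutral amino acids, had an unmethylated start region and methylated CpGs only far from it. Its 20 promoter CpGs had means of 1.89% ± 1.74, 3.28% ± 1.71 and 0.932% ± 0.460 in naive B cells, plasmablasts and plasma cells, and none was called. The other 10 CpGs lie beyond the 3' end of the transcript, and 9 of them in a stretch of 22220 to 23415 bp from an inner start, the nearest annotated one (mm9 chr8:124397049-124398244). That stretch averaged 83.5%, 85.6% and 83.4% in naive B cells, 67.8%, 74.1% and 76.2% in plasmablasts and 62.1%, 59.2% and 55.9% in plasma cells. Groups were ordered naive B cells, plasmablasts, plasma cells with no overlap, and 6 of the 9 CpGs fell in plasma cells and 1 in plasmablasts. One of them, at chr8:124398011, held 86.2%, 79.5% and 88.9% in naive B cells, 90%, 80.4% and 93.3% in plasmablasts and 57.1%, 69.2% and 46.3% in plasma cells. Plasmablasts overlapped naive B cells there, and plasma cells lay below plasmablasts (-33.5 points, adjusted p = 0.003), a call lost without plasmablasts 1, plasmablasts 3 or plasma cells 3, with the set term and with limma. As a locus Slc7a5 stood at 25.9%, 32.3% and 29.1% in naive B cells, 23.9%, 28.6% and 30% in plasmablasts and 20.6%, 14% and 16.5% in plasma cells, and fell by 12.4 points in plasma cells (adjusted p = 0.0011). At a coverage minimum of 20 the difference was -4.09 points and the call was lost, as it was with the set term.

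The other CD98 partners changed by differing amounts. Slc7a8 (LAT2), a second carrier of large neutral amino acids, had 55%, 73.3% and 71.8% in naive B cells, 52.6%, 57.1% and 52.1% in plasmablasts and 49%, 42.5% and 42.5% in plasma cells over 12 CpGs. Naive B cells 1 stood apart from the other naive libraries, and the call in plasma cells (-20.4 points, adjusted p = 0.0057) was lost without naive B cells 2 or 3 or plasma cells 2 or 3 and with the set term; against naive B cells 1 the difference of the plasma cell mean was -10.3 points. Slc7a6 (y+LAT2), the relative of Slc7a7 found in many tissues, had 63.4%, 63.7% and 59.4% in naive B cells, 57.3%, 64.8% and 60.2% in plasmablasts and 57.9%, 48% and 41.6% in plasma cells over 21 CpGs. Its plasma cell libraries lay below all others except for an overlap with plasmablasts 1, but the difference of -13 points missed the threshold (adjusted p = 0.014) and passed it at -18.1 points without plasma cells 1. Slc7a6os, the neighbour that is no transporter, stayed under 10% with 0%, 3.13% and 3.35% in naive B cells, 3.66%, 8.6% and 2.11% in plasmablasts and 1.04%, 1.11% and 1.07% in plasma cells, and was not called (adjusted p = 0.37). For Slc7a11 (xCT), which takes up cystine in exchange for glutamate, 11 CpGs held 57.7%, 59.3% and 61.8% in naive B cells, 45.7%, 57% and 59.2% in plasmablasts and 47.4%, 38.7% and 34.7% in plasma cells. Plasma cells lay below naive B cells (-19.2 points, adjusted p = 0.0026; lost without plasma cells 3 and with the set term), while plasmablasts overlapped both. Slc7a10, a carrier of small neutral amino acids, had 2 named CpGs just inside its start, at 723 bp (chr7:35972128) with 77.8%, 59.5% and 64.7% in naive B cells, 40%, 55.1% and 44.4% in plasmablasts and 36.1%, 24% and 17.5% in plasma cells and at 967 bp (chr7:35972372) with 82.1%, 73.3% and 89.3% in naive B cells, 50%, 62.1% and 48.4% in plasmablasts and 48.3%, 42.9% and 38.5% in plasma cells. Both fell in plasma cells (-42 and -38.7 points), and the second also in plasmablasts, a call lost without naive B cells 1 or 3 or plasmablasts 1 or 3, with the set term and with limma.

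Slc7a1 (CAT1), the main importer of arginine and lysine in many cells, needs no heavy chain. Over 39 CpGs its locus stood at 85.3%, 84.7% and 86.5% in naive B cells, 69.7%, 74.3% and 68.2% in plasmablasts and 68.2%, 54% and 56.1% in plasma cells. It fell by 14.3 points in plasmablasts (adjusted p = 0.0031; lost when naive library 2 or 3 or plasmablast library 1 or 3 was left out) and fell by 25.6 in plasma cells (adjusted p = 5.7e-05). Its 5 CpGs 261 to 805 bp inside the upstream start averaged 2.92% ± 2.61, 5.06% ± 2.37 and 0.394% ± 0.410, with no call. A stretch of 4 intronic CpGs (mm9 chr5:149200630-149201065), singled out after its values were seen, averaged 84.6%, 93.6% and 78.2% in naive B cells, 36%, 34.9% and 28.6% in plasmablasts and 20.5%, 12% and 21.2% in plasma cells. All 4 CpGs fell in both plasmablasts and plasma cells, and the groups' libraries do not overlap. Neighbouring CpGs can lie on the same reads, so they are not independent measurements. Its CpG at chr5:149200828, read 48 to 112 times per library, had 80.2%, 91.1% and 72.9% in naive B cells, 25%, 17.3% and 25.4% in plasmablasts and 15.4%, 2.35% and 9.26% in plasma cells, the largest loss of any member CpG (-74.2 points, adjusted p = 7.9e-48). The next largest loss, at chr5:149200630, held 100%, 100% and 95% in naive B cells, 55.6%, 48.6% and 29.2% in plasmablasts and 36.4%, 16.7% and 25.7% in plasma cells (-72.8 points, adjusted p = 1.4e-16). Most other intronic CpGs of the gene stayed above 80% in all groups. Slc7a3, another cationic amino acid transporter, on the X chromosome, and Slc7a4, Slc7a9, Slc7a10, Slc7a13, Slc7a14 and Slc7a15 also had loci that fell in plasma cells, to means of 34.9% to 80.9%; the calls of Slc7a3, Slc7a4, Slc7a9 and Slc7a13 were lost with the set term. CpGs that fell in plasma cells numbered 12 of 57 in Slc7a14, 8 of 25 in Slc7a15, 5 of 16 in Slc7a10, 3 of 13 in Slc7a3, 3 of 7 in Slc7a4, 2 of 10 in Slc7a9 and 0 of 5 in Slc7a13. In the genes too small for a locus they numbered 2 of 3 in Slc7a12 and 1 of 2 in Slc7a2.

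Among SLC1 genes, Slc1a5 (ASCT2), the glutamine and neutral amino acid exchanger, had the smallest locus difference. Its 45 CpGs held 17.3%, 19.9% and 19.8% in naive B cells, 18.2%, 22.3% and 19.6% in plasmablasts and 14.4%, 13.6% and 11.2% in plasma cells. Plasma cells lay below naive B cells (-6.01 points, adjusted p = 0.0046; lost without naive B cells 2 or 3 or plasma cells 2 or 3, and with the set term), while plasmablasts overlapped naive B cells. The start region, 29 CpGs from 29 to 1020 bp inside the gene, averaged 2.03% ± 1.79, 3.70% ± 3.08 and 0.688% ± 0.175. Of 7 CpGs 2745 to 3295 bp inside the gene (mm9 chr7:17369441-17369991), singled out after their values were seen, the mean was 16.9%, 15.3% and 19.4% in naive B cells, 3.66%, 7.20% and 1.37% in plasmablasts and 0.714%, 1.11% and 1.76% in plasma cells, and the 3 nearest the start fell in both plasmablasts and plasma cells. Slc1a4 (ASCT1), a carrier of serine, alanine and cysteine, had 21.7%, 28.6% and 23.7% in naive B cells, 17%, 27.2% and 26.6% in plasmablasts and 17.2%, 13.1% and 14.7% in plasma cells over 18 CpGs and was not called in plasma cells (-9.71 points, adjusted p = 0.012; -5.11 with equal weights). No single CpG of Slc1a4 was called.

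Larger differences were seen in glutamate transporters of the SLC1 family. Slc1a2 (GLT-1), best known from astrocytes, had 63.1%, 61.4% and 65.9% in naive B cells, 50.9%, 55.9% and 50.7% in plasmablasts and 47%, 34.2% and 38.2% in plasma cells over 18 CpGs. The 3 groups do not overlap, and the plasma cell difference was -23.2 points (adjusted p = 0.00027), or -14.2 points with CpGs weighted equally; the call was lost at a coverage minimum of 20. Slc1a7, a glutamate transporter of the retina, had 89.7%, 88.2% and 92.5% in naive B cells, 74.8%, 75.6% and 83.7% in plasmablasts and 75%, 69.5% and 65% in plasma cells, and fell by 20.1 points in plasma cells (adjusted p = 0.00029). Its CpG 630 bp inside the start (chr4:107641570) was fully methylated in naive B cells and held 100%, 100% and 100% in naive B cells, 88.9%, 81.8% and 90% in plasmablasts and 60%, 56.2% and 63.6% in plasma cells. It fell in plasma cells, a call lost with the set term. Its exonic CpG at chr4:107665720 held 92.7%, 100% and 94.4% in naive B cells, 90.9%, 87.5% and 100% in plasmablasts and 73.9%, 55% and 47.1% in plasma cells, and so was lower in plasma cells than in plasmablasts (-33.3 points, adjusted p = 0.00996), a value at the threshold that remained called under 3 of 14 alternatives. The largest single losses of the family were in Slc1a3 (GLAST), another glutamate transporter of glia. An intronic CpG at chr15:8594568 held 94.9%, 91.7% and 82.6% in naive B cells, 45.8%, 71.4% and 71.4% in plasmablasts and 66.7%, 7.14% and 45% in plasma cells, with plasma cells 1 and 2 far apart. A second at chr15:8620797 held 92.6%, 90.9% and 95.5% in naive B cells, 64%, 54.5% and 65.4% in plasmablasts and 44.8%, 60% and 33.3% in plasma cells and fell by 46.4 points in plasma cells (adjusted p = 2.2e-07). In all, 13 of 58 CpGs of Slc1a3 fell in plasma cells, 4 of 33 of Slc1a1 and 1 of 2 of Slc1a6, both glutamate transporters as well.

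The SLC38 family held the most member CpGs lower in plasma cells of a single gene. Slc38a2 (SNAT2), the sodium-coupled carrier of alanine and glutamine that cells raise when amino acids run short, had 59 CpGs, of which 20 fell in plasma cells and 8 in plasmablasts. Its locus stood at 68.1%, 68.2% and 65% in naive B cells, 53.8%, 62.7% and 55.3% in plasmablasts and 52.7%, 44.1% and 40.5% in plasma cells. Plasma cells lay below naive B cells (-21.5 points, adjusted p = 0.00018), and the groups do not overlap. The plasmablast difference of -9.64 points did not pass (adjusted p = 0.034). Among its 59 CpGs 35 are intergenic, and the one with the largest loss lies 43058 bp upstream of the start (chr15:96573188), at 84.6%, 100% and 95.7% in naive B cells, 41.7%, 58.1% and 69% in plasmablasts and 20%, 18.2% and 22.2% in plasma cells. It fell at each step, with -32.7 points in plasmablasts against naive B cells (adjusted p = 0.00054) and -39.2 in plasma cells against plasmablasts (adjusted p = 0.0025); the second call was lost without plasmablasts 2 or 3 or plasma cells 2 or 3, with the set term and with limma. In the 15 CpGs from 1184 bp before to 2898 bp after the start the mean was 32.1%, 36.6% and 35.5% in naive B cells, 24.9%, 27.9% and 22.3% in plasmablasts and 19.9%, 18.4% and 15% in plasma cells, with 6 of the 15 lower in plasma cells.

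Slc38a1 (SNAT1), a close relative of Slc38a2 and its neighbour on chromosome 15, had 90 CpGs and only 5 that fell. Its locus stood at 49.3%, 51.6% and 50.4% in naive B cells, 43.6%, 49.4% and 47.8% in plasmablasts and 44.4%, 32.9% and 34.3% in plasma cells. The plasma cell difference of -12.9 points was called (adjusted p = 0.0019; lost without plasma cells 3 and with the set term), but was -4.83 points with CpGs weighted equally. Its 45 CpGs from 491 bp before to 787 bp after the start averaged 1.77% ± 1.31, 4.18% ± 2.39 and 0.852% ± 0.0999. Slc38a9, the lysosomal transporter that senses arginine for mTORC1, had 94.9%, 96.5% and 93.4% in naive B cells, 88.3%, 90.1% and 77.9% in plasmablasts and 85.6%, 80.7% and 82.9% in plasma cells over 14 CpGs and fell by 11.7 points in plasma cells (adjusted p = 0.003; lost without naive B cells 2, plasma cells 2 or plasma cells 3, at a coverage minimum of 5 and with the set term), with 1 CpG called. Slc38a8, a glutamine transporter of the eye and brain, had 63.6%, 67.1% and 65.5% in naive B cells, 53.9%, 59.7% and 55.8% in plasmablasts and 50.5%, 42.9% and 46.8% in plasma cells over 23 CpGs, and fell by 18.2 points in plasma cells (adjusted p = 0.0003). A run of 4 CpGs 1922 to 2161 bp upstream of its start (mm9 chr8:122027521-122027760), singled out after its values were seen, averaged 85.4%, 85.2% and 83.3% in naive B cells, 42.2%, 42.7% and 38.9% in plasmablasts and 29.2%, 20.1% and 28.7% in plasma cells, and all 4 fell in both plasmablasts and plasma cells. The outermost, at chr8:122027760, had 73.4%, 76.9% and 74.2% in naive B cells, 37.5%, 30% and 32.3% in plasmablasts and 9.84%, 9.23% and 12% in plasma cells, the groups being fully separate (-64.4 points in plasma cells, adjusted p = 3.9e-22). It also fell by 23.1 points from plasmablasts to plasma cells (adjusted p = 0.0084), a call that remained under 3 of 15 alternatives. Slc38a11 had the smallest locus difference of the family, with 56%, 56.7% and 54.2% in naive B cells, 50.3%, 58.3% and 62.6% in plasmablasts and 48%, 41.9% and 54.7% in plasma cells (-7.04 points in plasma cells, adjusted p = 0.11), and its libraries overlapped. Slc38a3, a glutamine transporter of liver and kidney, had 8 of 20 CpGs lower in plasma cells; the one 330 bp inside its most upstream start (chr9:107570968) held 100%, 97.1% and 100% in naive B cells, 80%, 85.7% and 78.6% in plasmablasts and 52.4%, 30% and 52.4% in plasma cells. Its locus was not called, with naive libraries spread by an SD of 17.8 points. In the rest of the family 3 of 30 CpGs fell in Slc38a10, 1 of 15 in Slc38a6, 1 of 6 in Slc38a5 and 1 of 4 in Slc38a7.

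SLC36 genes were highly methylated in naive B cells throughout. Slc36a1 (PAT1), the proton-coupled exporter of small amino acids from lysosomes, had 96%, 97.2% and 96.5% in naive B cells, 86.8%, 88.8% and 86.6% in plasmablasts and 87%, 79.9% and 80.7% in plasma cells over 23 CpGs. It fell by 9.10 points in plasmablasts (adjusted p = 0.0018; lost without naive B cells 2) and fell by 13.6 in plasma cells (adjusted p = 0.00012), and only 3 of the 23 CpGs were called one by one in plasma cells. Slc36a2, a neighbour of Slc36a1 on chromosome 11, had 93.4%, 96% and 94.4% in naive B cells, 75.4%, 82.1% and 74.5% in plasmablasts and 76.5%, 79.7% and 75% in plasma cells over 10 CpGs. Its plasmablast and plasma cell libraries overlapped, both below naive B cells (-17 and -17.9 points, adjusted p = 0.0014 and 0.00027). Its CpG 292 bp inside the start (chr11:54998286) held 95%, 100% and 94.6% in naive B cells, 75%, 61.5% and 56.5% in plasmablasts and 50%, 54.5% and 56% in plasma cells. The intergenic CpG of Slc36a3 at chr11:54967874 held 83.3%, 92% and 100% in naive B cells, 65.4%, 71.4% and 62.1% in plasmablasts and 68%, 33.3% and 46.7% in plasma cells, and all 4 tested CpGs of Slc36a3 fell in plasma cells; the call of the one given here was lost with the set term, and its plasmablast call without naive B cells 3. Slc36a4, a lysosomal and plasma membrane carrier of proline and tryptophan, had 2 tested CpGs and no locus test. The one that fell in plasma cells (chr9:15533491) held 95.9%, 100% and 100% in naive B cells, 67.7%, 90% and 80% in plasmablasts and 76.2%, 67.7% and 81.8% in plasma cells.

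In the SLC43 family no CpG fell in plasmablasts, and 7 fell in plasma cells. Slc43a1 (LAT3), a carrier of branched-chain amino acids, had 15.5%, 23.2% and 20.4% in naive B cells, 13.6%, 21.2% and 11.7% in plasmablasts and 11.5%, 5.25% and 5.62% in plasma cells over 17 CpGs, 15 of them at a promoter under 10% in every library. Its plasma cell difference of -12.4 points (adjusted p = 0.004) was lost without naive B cells 2 or 3 or plasma cells 2 or 3 and with the set term, and was -5.92 with equal weights; against naive B cells 1 the difference of the plasma cell mean was -8.00 points. Its intronic CpG at chr2:84682031, 1247 bp inside an inner start, held 100%, 100% and 96.6% in naive B cells, 91.7%, 83.3% and 68.8% in plasmablasts and 80%, 43.8% and 50% in plasma cells, and fell by 35.3 points in plasma cells (adjusted p = 1.4e-07). Slc43a2 (LAT4), a carrier of the same amino acids, had 84.4%, 66% and 69.2% in naive B cells, 68.8%, 69.3% and 77.5% in plasmablasts and 64.1%, 68.9% and 58.2% in plasma cells over 9 CpGs. These libraries overlapped and the locus was not called in plasma cells (-11.2 points, adjusted p = 0.09), while limma with equal weights called it at -17.9 points; against naive B cells 1, the highest naive library, the difference of the plasma cell mean was -20.7 points. One intronic CpG of Slc43a2, at chr11:75376741, held 95%, 89.2% and 96.8% in naive B cells, 100%, 93.8% and 87.5% in plasmablasts and 25%, 30.8% and 43.5% in plasma cells. Plasmablast libraries overlapped naive B cells there, and plasma cells lay below plasmablasts (-57.5 points, adjusted p = 2.6e-05), the largest such difference among the members; it kept its call in 12 of 14 alternatives, not with the set term or limma. Slc43a3, a relative that carries nucleobases, had 97.2%, 99.2% and 98.2% in naive B cells, 87.4%, 88% and 89.3% in plasmablasts and 87.5%, 77.4% and 82.5% in plasma cells, and fell by 15 points in plasma cells (adjusted p = 0.0005).

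Start sites were examined over CpGs within 1000 bp of a start in the 21 genes with 5 or more such CpGs. A gene's window can join CpGs near more than 1 start. In plasma cells 3 of 21 windows fell against naive B cells, against 5.76% of all 7117 windows, and in plasmablasts 0 of 21, against 0.169%; between plasma cells and plasmablasts 0 of 21 differed, against 0.0%. At an unadjusted p under 0.05, 4 windows were lower and 3 higher in plasmablasts than naive B cells, against 5.92% and 6.74% of all windows, and 15 were lower and 0 higher in plasma cells than plasmablasts, against 55% and 0.0%. Over all 78187 tested CpGs with a mean under 5%, the level was 2.08% to 6.11% in the library set that holds the plasmablasts and 0.749% to 1.16% in the set that holds the plasma cells, and its part in these small differences was not tested. The quasi-binomial test with limma's moderation was the only tool run on windows. In 10 of the 21 windows every library was under 10%, among them Slc3a2, Slc7a5, Slc7a1, Slc1a4, Slc1a5, Slc38a1 and Slc43a1. The Slc7a7 window (6 CpGs) stood at 51.5%, 53% and 67.9% in naive B cells, 45.5%, 38.7% and 37.3% in plasmablasts and 23.7%, 16.1% and 14.6% in plasma cells, with no overlap between groups (plasma cells -38.8 points against naive B cells, adjusted p = 0.00061). This window joins CpGs before the most upstream start with CpGs before an inner start. It kept its call under all 13 alternatives run, but had too few CpGs to be tested at a coverage minimum of 20 or at 500 bp. Slc7a3 (9 CpGs, X chromosome) stood at 53.5%, 56.1% and 62.9% in naive B cells, 51.7%, 51.3% and 54.6% in plasmablasts and 40.8%, 32% and 29.8% in plasma cells. Its plasma cells lay below both other groups (-23.2 points against naive B cells, adjusted p = 0.005). Slc36a1 (6 CpGs) was almost fully methylated in naive B cells and stood at 96.9%, 97% and 96.2% in naive B cells, 92%, 88.9% and 87.5% in plasmablasts and 86.5%, 78.1% and 79.5% in plasma cells (-15 points in plasma cells, adjusted p = 0.0062). No CpG of Slc36a1 was classed as promoter, and its annotated start was not matched to the RefSeq start, so this window may not be its main promoter. The calls of Slc7a3 and Slc36a1 were lost with the set term and when naive library 2 or 3, plasmablast library 3 or plasma cell library 2 or 3 was left out, and that of Slc36a1 also without plasmablasts 2. Of the 277 member CpGs within 1000 bp of a start, 19 fell in plasma cells and 4 in plasmablasts, against 4.86% and 1.79% of all such CpGs.

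By position, larger shares fell in introns and between genes than at promoters or in exons. These classes do not separate start sites, since no CpG of Slc1a5 was classed as promoter although its start region was measured. Nor were the classes compared at equal starting levels. A CpG below 20% in naive B cells cannot fall by the minimum difference, and 22 of the 24 promoter CpGs of Slc3a2 lay there. In plasma cells 19 of 169 promoter CpGs fell (11.2%), 13 of 153 exonic (8.5%), 85 of 337 intronic (25.2%) and 55 of 195 intergenic (28.2%), and over all tested CpGs the shares were 7.78%, 11.3%, 25.5% and 31.7%. Of the 172 CpGs that fell 139 had a naive level of at least 80%, and the lowest naive level among them was 27.4%. Of the 854 CpGs 19 lie on the X chromosome.

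The pathway that answers amino acid supply was examined through 56 genes: the ATF4 response, serine and glutamine metabolism, the mTORC1 sensor complexes and Myc. Of these 49 had tested CpGs and 42 a tested locus. In plasma cells 26 of 42 loci fell and 0 rose, against 66.3% of all loci; in plasmablasts 6 fell, against 23.1%. Of their 1091 CpGs 17.0% fell in plasma cells and 7.79% in plasmablasts, both below all tested CpGs. The genes with most CpGs lower in plasma cells were Mycn (22 of 81), Got1 (20 of 54), Fnip2 (19 of 63), Rragc (16 of 62) and Max (14 of 44). Got1, an aspartate aminotransferase, had 60.8%, 62% and 66.9% in naive B cells, 45.4%, 51.4% and 52.4% in plasmablasts and 45.1%, 34% and 35.5% in plasma cells. It fell in plasmablasts as well as in plasma cells (-24.4 points, adjusted p = 8.2e-05). Rragc, a GTPase that brings mTORC1 to the lysosome, fell in plasma cells from 65.3% ± 3.27 to 45.5% ± 6.18 (adjusted p = 0.00022). Mycn, a Myc family factor, went from 74% ± 4.14 to 49.9% ± 6.32 (adjusted p = 9e-05). Fnip2, a partner of folliculin at the lysosome, went from 80.8% ± 0.814 to 61.3% ± 2.68 (adjusted p = 3e-05), and Max, the partner of Myc, from 76.4% ± 2.93 to 57.1% ± 5.05 (adjusted p = 0.00014). One CpG of Max was the only CpG of the list called higher, in plasmablasts. Atf4, the factor that drives the amino acid response, was low in all groups, at 9.19% ± 0.992, 10.4% ± 2.80 and 7.03% ± 2.14, and not called. Asns, the asparagine synthetase it induces, fell from 93.9% ± 1.70 to 80.6% ± 1.51 in plasma cells (adjusted p = 0.00097). Of the mTORC1 genes, Mtor fell from 98.8% ± 0.435 to 88% ± 1.91 (adjusted p = 0.0012) and Rptor, its scaffold, from 88.8% ± 1.68 to 73.9% ± 1.18 (adjusted p = 6.2e-05). Deptor, an mTOR inhibitor, fell from 78.5% ± 11.9 to 54.4% ± 1.59 (adjusted p = 0.0062), with naive B cells 1 at 65.0% and the other naive libraries at 87.2% and 83.3%. Sesn2, a leucine sensor, stood at 39% ± 6.04 and 29.1% ± 4.65 and was not called (adjusted p = 0.026).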

How the data were processed

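Per the deposited description, the authors summed both strands of each CpG; the table is titled with a common group coverage of 10, and replicates are not pooled in it. The authors deposited methylated and unmethylated read counts per CpG and library, with the fraction methylated, which equals the ratio of the counts. Alignment used Bismark and Bowtie2 on mouse build mm9, per the submitters' processing notes, which give no versions here. CpGs carry the authors' gene assignment and distance to a start site. The authors also deposited lists of CpGs that differed from naive B cells, without values.

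Counts were the input of every test. CpGs with 10 reads in all 9 libraries entered a quasi-binomial logistic model fitted to CpGs, gene loci (5 or more CpGs) and start-site windows (within 1000 bp, 5 or more CpGs) of all genes, in R 4.3.3. The dispersion was moderated with limma 3.58.1 and kept at 1 or above, and adjusted p-values are Benjamini-Hochberg over all features of a kind. The prior of 855 degrees of freedom for single CpGs means that a CpG's own spread hardly enters its p. Calls needed pooled levels to differ by 20 points (CpGs) or 5 points (loci and windows), with an adjusted p under 0.01. The single-CpG test was also run on simulated counts with losses placed in plasma cells only. Loci and windows were not simulated, and the outcome is not given here. Printed levels are means of libraries, and tested differences are of pooled reads. PCR duplicates cannot be removed from such reads, so the depths of 24 to 37 reads overstate the number of molecules.

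The members and lists were chosen with earlier results of these data known. Every library's value is given for genes of known roles in lymphocytes and nutrient sensing, and for each family for the 2 genes with the largest called locus loss in plasma cells and the 1 gene with the smallest difference. Single CpGs are named for the 2 largest called losses in plasma cells per family, the 5 largest called differences between plasma cells and plasmablasts, and called CpGs within 1000 bp of a start (at most 10). Alternatives were the coverage minimum, the minimum difference, the window, CpG weighting, limma on log ratios, a replicate block, a library set term and leaving out each library. Promoter sequences came from a RefSeq table on GRCm38.p6.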

Additional observations from a re-analysis of the deposited data

How the results depend on the processing

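At a coverage minimum of 20 reads the member CpGs called lower numbered 28 of the 289 tested in plasmablasts and 69 in plasma cells against naive B cells (11.4% and 24.5% of all CpGs), and 0 between plasma cells and plasmablasts. A minimum difference of 10 points gave 153 and 283 in the comparisons with naive B cells. These were 17.9% and 33.1% of the members, against 19.4% and 35% of all CpGs. A minimum of 30 points gave 23 and 73 (2.69% and 8.55%, against 3.21% and 9.37% of all CpGs). With the library set term the plasma cell count was 88, and that between plasma cells and plasmablasts was 0, as it was with limma. With a library left out the counts ran from 53 to 71 in plasmablasts, from 135 (without plasma cells 3) to 210 (without plasma cells 1) in plasma cells, and from 2 to 9 between them, with 2 without plasmablasts 3 or plasma cells 3, 3 without plasmablasts 2 and 4 without plasmablasts 1 or plasma cells 2. Over all CpGs the shares ran from 7.92% to 10.6%, from 18.1% to 24.9% and from 0.0982% to 0.756% in these comparisons. Loci lower in plasma cells numbered 14 of the 20 tested at a coverage minimum of 20 (69.8% of all loci) and 15 of 36 with the set term (38.1%), with a range of 18 to 30 with a library left out (45.3% to 73.3%). Loci lower in plasmablasts numbered 24 with equal CpG weights (56.2% of all loci) and 2 to 11 with a library left out (9.37% to 31.8%). Between plasma cells and plasmablasts they numbered 6 with equal weights (10.2% of all loci) and 0 to 12 with a library left out (0.0% to 17.8%).

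For start-site windows the coverage, block, set term and left-out-library alternatives were chosen after seeing the data. Windows lower in plasma cells numbered 0 of the 7 tested at a coverage minimum of 20 (7.57% of all windows), 0 of 13 at 500 bp (2.45%), 1 of 26 at a coverage minimum of 5 (3.81%), 1 of 21 with the set term (1.59%) and 7 of 26 at 2000 bp (12.5%). They numbered 1 to 5 with a library left out: 5 without naive B cells 1 (14.5%), and 1 when naive library 2 or 3, plasmablast library 3 or plasma cell library 2 or 3 was left out (0.829% to 3.61%). In plasmablasts 1 window was lower at 2000 bp (0.746% of all windows), and 0 with any library left out. Between plasma cells and plasmablasts the range was 0 to 2, with 2 without naive B cells 1 (4.1% of all windows). The cause of these moves was not tested. With the replicate number as a block, counts in plasmablasts, plasma cells and between them were 66, 162 and 5 CpGs, against 9.95%, 21.9% and 0.388% of all CpGs. Loci numbered 4, 19 and 0, against 9.21%, 54.1% and 0.0% of all loci. With the block 1 window was lower in plasma cells, against 1.73% of all windows. Same-numbered libraries' deviations correlated between -0.029 and 0.030, and not every library correlated best with its own number. These values show no pairing by replicate number but cannot exclude it, since the sources do not tie libraries to animals.

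With reads pooled over CpGs, family differences between plasma cells and naive B cells were -16.5 points in SLC1, -13.8 in SLC3, -19.4 in SLC7, -16.3 in SLC38 and -14.6 in SLC43, and between plasma cells and plasmablasts -10.6, -9.69, -11.1, -10.4 and -10.8. Without promoter CpGs the plasmablast differences were -7.79 in SLC3, -9.96 in SLC7 and -8.41 in SLC43, the plasma cell differences -10.7, -15.8 and -17.2, and that between plasma cells and plasmablasts in SLC43 was -8.78. At a coverage minimum of 20 the plasma cell differences were -12.6 in SLC7, -14.1 in SLC38 and -8.74 in SLC43, and that between plasma cells and plasmablasts in SLC43 was -4.17. With a library left out the plasma cell differences from naive B cells ran from -12.2 to -10.3 in SLC1, -7.34 to -5.20 in SLC3, -15.1 to -13.5 in SLC7, -18.4 to -15.8 in SLC36, -12.8 to -11.5 in SLC38 and -12.0 to -10.2 in SLC43. The plasmablast difference of Slc38a11 changed sign and was called, from 0.837 to -17.4 points at a coverage minimum of 20 and to -8.91 with equal weights. With no call where it did, the sign also changed for Slc1a4, Slc1a5, Slc3a2, Slc43a2 and Slc7a6 in plasmablasts against naive B cells, and for Slc36a2 between plasma cells and plasmablasts. Over the named loci and alternatives, 291 plasma cell differences kept their side of the threshold, 34 lost the call and 12 gained it. Depth also limits single CpGs: a CpG read 10 times moves by 10 points with each read.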
